A study of Mus musculus with 9 samples.

Results

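Ciliated ependymal cells of the mouse brain were examined in single-cell transcriptomes of the tumor microenvironment of glioblastoma xenografts. Barcodes were kept from 200 genes upwards and up to a mitochondrial share of 30% of unique molecular identifiers (UMIs). A kept barcode was counted as a ciliated ependymal cell when it held UMIs of at least 3 of the 7 genes Foxj1, Ccdc153, Tmem212, Rsph1, Dynlrb2, Rarres2 and Mia, and of at most 1 of the 5 exclusion genes Csf1r, Cldn5, Rgs5, Folr1 and Kl. This chose 151 of 15391 kept barcodes (0.981%). The samples were a tumor-free nude mouse brain (Nu-NB, n = 1), 7 patient-derived orthotopic xenografts without treatment (PDOXs: P13, T16, P3, T233, T192, T101 and P8) and 1 P3 PDOX treated with temozolomide (P3TMZ). All brains, the control included, were of athymic nude mice, and the hosts of the tumors were female. These mice lack mature T cells, tumors grew from human glioblastoma organoids, and only mouse cells were analysed here. P3 and P3TMZ were 1 mouse each. The age of the mice was not given in the sources used here, and T192 and T233 came from the same patient. FACS was used for Nu-NB and P8, and magnetic depletion (MACS) for all other samples, so the sort and the comparison with Nu-NB cannot be told apart for 6 of the 7 untreated PDOXs. Cells were captured by Drop-seq, which pairs cells with barcoded beads in droplets and counts the UMIs of each gene.

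Ependymal cells form the epithelium that lines the brain ventricles. They carry tufts of motile cilia that move cerebrospinal fluid, and they do not normally divide. The core of a motile cilium, the axoneme, holds outer microtubule doublets and a central pair. Dynein arms drive the bending, and radial spokes and nexin links coordinate it. Foxj1 and the Rfx factors are known to switch on the genes of this structure, and intraflagellar transport carries its parts along the cilium.

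Among the genes of the rule, Rarres2 (the secreted chemoattractant chemerin) was found in 128 of the 151 cells, Rsph1 (a radial spoke protein) in 117, Tmem212 in 115, Ccdc153 in 114, Dynlrb2 (a dynein light chain) in 109, Foxj1 in 74 and Mia in 67. The rule selected these values, so they are a description. All 7 genes were present in 19 cells, 6 in 38, 5 in 28, 4 in 25 and exactly 3 in 41. Among all other kept barcodes, UMIs of Ccdc153 were found in 0% of Nu-NB and up to 3.74% of P13, and of Rarres2 in 1.66% (T101) to 13.1% (P13), at median depths of 519.5 to 1283 UMIs against 881 to 18266 in the chosen cells of the same samples. Just outside the rule, the 65 barcodes with 2 of the 7 genes and at most 1 exclusion gene held a median of 0.506% axonemal UMIs, against 1.08% in the 41 cells with exactly 3. Here and below, axonemal UMIs are those of 81 genes for dyneins, spokes, links and inner axoneme proteins that the rule did not use.

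A further 172 barcodes had at least 3 of the 7 genes but were dropped for 2 or more exclusion genes. They were deep, with medians per sample between 5943 and 33549.5 UMIs, and 155 of them held Csf1r, the receptor that defines myeloid cells. They lay mainly in P13 (102) and T16 (38), while Nu-NB and T101 had none. No chosen cell held Cldn5, the claudin of endothelial junctions, whereas 55 held Csf1r, 11 Folr1, 8 Rgs5 and 5 Kl. None of the 151 barcode sequences was kept in another library. Of all pairs of chosen cells within a library, 2 differed in a single base, 1 in P8 and 1 in P13, and were counted as separate cells.

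The share of ciliated ependymal cells was low in every sample and highest in P13 and T16. It was 0.214% in Nu-NB (4 of 1868 kept barcodes, 95% exact binomial interval 0.0584 to 0.547), 0.315% in T192 (6 of 1905), 0.327% in P8 (8 of 2447), 0.444% in T101 (7 of 1577), 0.489% in P3 (4 of 818), 1.03% in T233 (10 of 974), 1.51% in T16 (32 of 2126, 1.03 to 2.12) and 2.71% in P13 (79 of 2916, 2.15 to 3.37). P13 and T16 together gave 111 of the 151 cells (73.5%). The interval of Nu-NB overlapped those of P8, T101, T192, T233 and P3, and lay below those of T16 and P13. The mean over the 7 untreated PDOXs was 0.974% ± 0.882 (SD, n = 7). With 1 brain without tumor there is no test of this difference, and such intervals cover counting error only. How far each dissection reached the ventricle wall is not in the labels, so a share cannot be read as abundance in the brain.

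**Figure D1:**
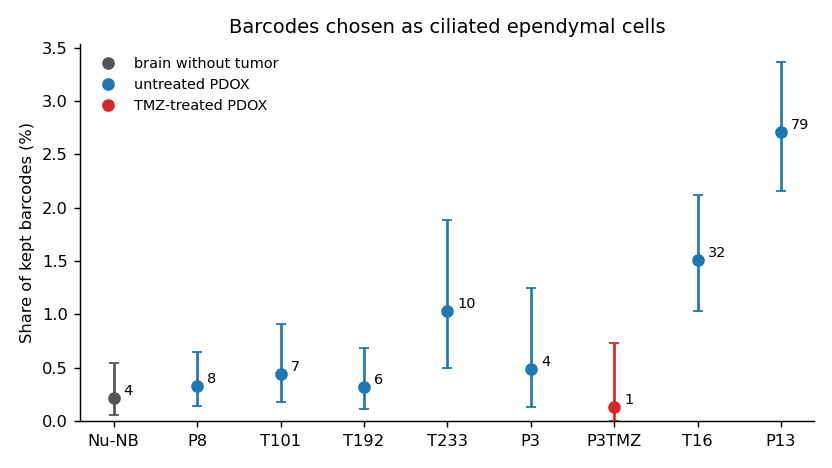
Share of kept barcodes chosen as ciliated ependymal cells in each sample (percent, y axis), with 95% exact binomial intervals as bars and the number of cells beside each point. P13 and T16 sit at 2.71% and 1.51%, and Nu-NB at 0.214%.

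The label was then checked with genes that the rule did not use, and the genes of cilia stood highest in Nu-NB and P8. Axonemal genes made up a median of 5.69% of a cell's UMIs in Nu-NB, 4.27% in P8, 2.67% in T101, 2.48% in P3, 2.22% in P13, 1.98% in T16, 0.911% in T233 and 0.586% in T192. In all other kept barcodes the axonemal share was between 0.0319% and 0.132%, and 149 of the 151 cells lay above that share of their own sample. The same cells were compared for 10 myeloid genes outside the rule, such as Ctss, Tyrobp and Cx3cr1. In Nu-NB the 4 cells held 1 myeloid UMI in all, and in P8 the highest share of a cell was 0.185%. In T192 and T233 the median myeloid share was 2.14% and 3.01%, against 2.85% and 2.91% in all other barcodes there. The data went against the label for 5 of 6 cells in T192 and 8 of 10 in T233, which held no more axonemal than myeloid UMIs. This was also so for the single P3TMZ cell, with 0.285% axonemal and 3.95% myeloid UMIs.

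More axonemal than myeloid UMIs were found in 4 of 4 cells in Nu-NB, 8 of 8 in P8, 5 of 7 in T101, 1 of 6 in T192, 2 of 10 in T233, 3 of 4 in P3, 0 of 1 in P3TMZ, 20 of 32 in T16 and 58 of 79 in P13. Of the 151 cells, 19 lay within 1.5-fold of this line. Cells with more axonemal UMIs had a median of 1526 UMIs, 2.98% of them axonemal and 0.101% myeloid. The other 50 cells had a median of 5435.5 UMIs, 0.581% axonemal and 2.21% myeloid, and 42 of them held an exclusion gene. These 50 barcodes carried 66.0% of all UMIs of the chosen cells. Choroid plexus epithelial cells were another class, chosen by its own markers with limits on ciliary and exclusion genes (given below). They held 0.0284% myeloid UMIs in Nu-NB and 0.0720% in P8, but 2.31% in T192, 2.93% in T233 and 3.12% in P3. The part of myeloid RNA in the results below was not tested. Summed levels below hold both kinds of barcode.

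**Figure D2:**
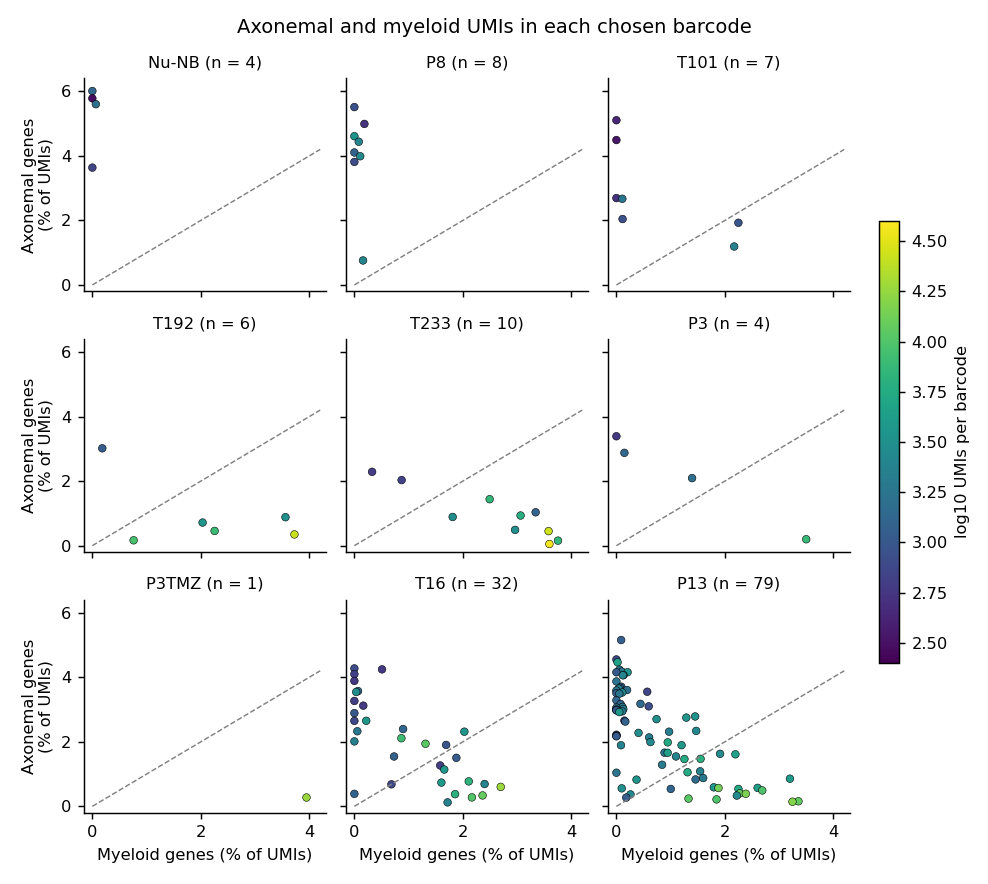
Each point is 1 of the 151 chosen barcodes, with the share of its UMIs in 10 myeloid genes (x axis, percent) and in 81 axonemal genes (y axis, percent), shaded by the log10 of its UMIs. The dashed line marks equal shares. All cells of Nu-NB and P8 lie above it near 0 on the x axis, and deep barcodes of T192, T233, T16 and P13 lie below it.

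Ciliary genes were then compared with all other kept barcodes of the same PDOX, to ask which genes mark these cells beyond those that chose them. UMIs were summed in T233, T16 and P13, the PDOXs with at least 10 chosen cells (121 cells in all), and tested by edgeR's quasi-likelihood test with a term for the PDOX. At FDR ≤ 0.01 and |log2FC| ≥ 1, 413 of 10830 genes outside the rule were higher (3.81%) and 382 lower (3.53%). The median log2FC of all genes was -0.12. Axonemal dyneins and their assembly factors rose together: of 27 genes, 19 passed the filter on low counts and 18 of these were higher, with a median log2FC of 3.56. Dnah12, an inner arm heavy chain, rose by 4.09 ± 0.33 (log2FC ± SE, FDR = 2.4e-33, edgeR). The assembly factor Dnaaf2 was the exception, with a log2FC of 0.91 ± 0.56 and an FDR of 0.39 in edgeR. Of 23 genes for radial spokes, nexin links and the central pair, all 21 tested were higher, with a median log2FC of 3.33. Among them were Spef2, a central pair protein (3.39 ± 0.24), Ccdc39, which sets the spacing of the spokes, and Hydin. Of 31 genes for inner proteins and other parts of the axoneme, all 26 tested were higher, with a median of 3.53, led by Fam216b (4.54 ± 0.29) and Sntn, the ciliary tip protein sentan (4.25 ± 0.32). With each cell thinned to 500 UMIs, so that deep barcodes weigh no more than others, 10 of 12, 14 of 19 and 24 of 25 tested genes of the 3 lists were higher. Thinning moved the median log2FC of all genes from -0.12 to -0.85, so thinned log2FCs against the other barcodes are to be read against that value. A gene scarce in other barcodes could pass the filter on low counts only through the chosen cells, so these counts are a description.

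Per sample, the level of Ak7, an adenylate kinase of the axoneme, was 2813 CPM (its UMIs scaled by the total UMIs of the summed cells) in Nu-NB, 1087 in P8, 1510 in T101, 197 in T192, 118 in T233, 360 in P3, 423 in T16 and 700.0 in P13, and 164 in the single P3TMZ cell. In the other barcodes of the same samples it was between 0.766 and 37.1 CPM, so the groups did not overlap. Cfap44, of the inner dynein arm tether, was 2558 CPM in Nu-NB, 1834 in P8, 961 in T101, 217 in T192, 194 in T233, 0 in P3, 475 in T16 and 659 in P13. It was not detected among the 11097 UMIs of P3, and in every other untreated sample it exceeded the other barcodes. Mns1, a filament protein inside the doublets, was 1279 CPM in Nu-NB, 1019 in P8, 686 in T101, 98.4 in T192, 118 in T233, 451 in P3, 502 in T16 and 756 in P13, again above all other barcodes (8.95 to 60.3 CPM). T192 and T233 were lowest of the untreated samples for Ak7 and Mns1, and Nu-NB was highest for all 3 genes. The deepest barcode held 51.5% of the summed UMIs in T192, 40.1% in T233 and 68.3% in P3. In the other untreated samples it held 5.78% (P13) to 39.7% (Nu-NB). The deepest barcodes of T192, T233 and P3 held 0.348%, 0.0511% and 0.198% axonemal UMIs, and each held more myeloid than axonemal UMIs. Summed levels of these PDOXs thus depend strongly on 1 barcode each. Levels without it were not tested. The test gave Ak7 a log2FC of 3.84 ± 0.25, Cfap44 3.84 ± 0.24 and Mns1 3.37 ± 0.24, each higher in 3 of 3 PDOXs (FDR = 9.6e-50, 1.5e-53 and 1.6e-42, edgeR).

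**Figure D3:**
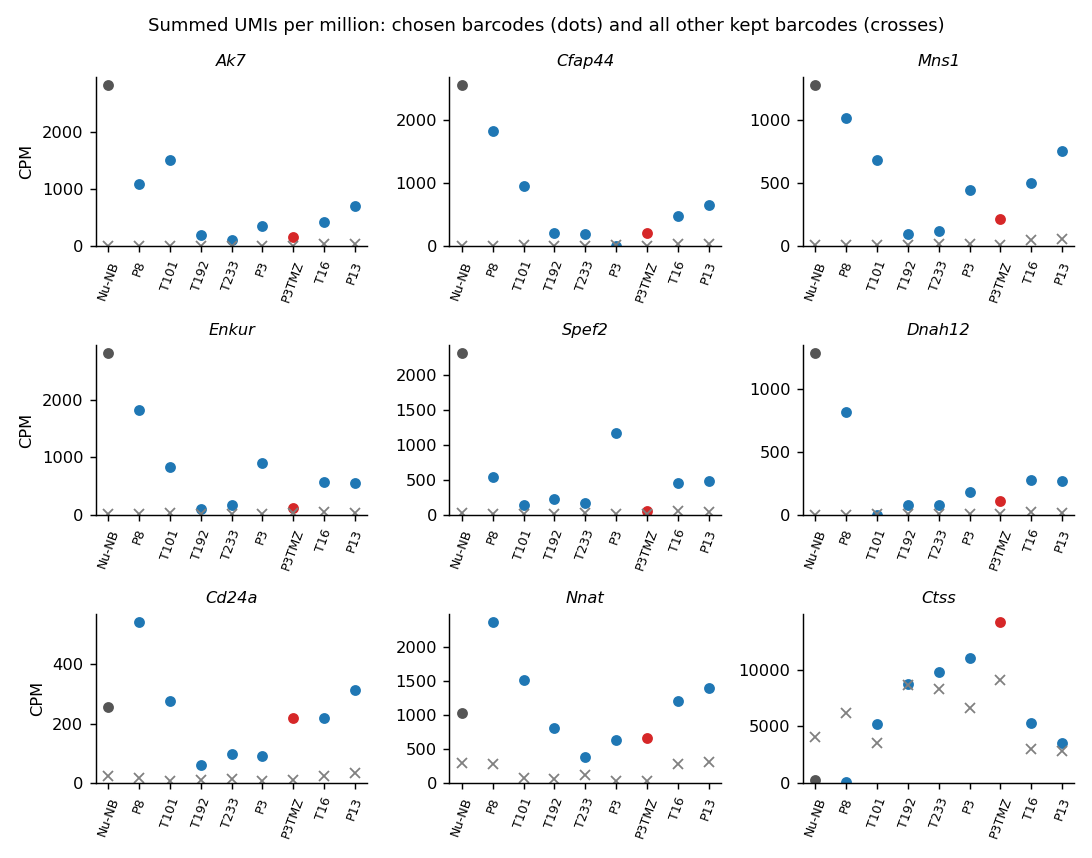
Level of 9 genes in CPM (y axis, linear) in the summed chosen barcodes (dots: grey Nu-NB, blue untreated PDOX, red P3TMZ) and in all other kept barcodes (crosses) of each sample (x axis). Ak7 and Mns1 are lowest in T192 and T233 among untreated samples, and Ctss, a myeloid cathepsin, is 256 and 67.9 CPM in the dots of Nu-NB and P8 and at least 3519 CPM in all others.

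The genes with the largest increase at 100 CPM or more included members of these lists. Beside Fam216b, Sntn, Spag17 (a central pair protein) and Dnah12, they were Ccdc180 (4.40 ± 0.35), Rgs22 (4.39 ± 0.36), Nme9 (4.39 ± 0.42), Ccdc81 (4.36 ± 0.43), Wdr66 (4.18 ± 0.29), which is part of a radial spoke-associated complex, and 1700012B09Rik (4.11 ± 0.33). Fam216b was measured by 145 UMIs in these 3 PDOXs and Ccdc81 by 57, so the latter is less precise. All had an FDR of at most 1.8e-21 (edgeR).

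The other parts of the ciliary program differed less from the rest of the cells. Of 27 genes of intraflagellar transport and the BBSome, 22 were tested and 7 were higher, with a median log2FC of 1.01. For this and the next lists, 3.81% of all genes were higher and 3.53% lower. Ift88, of the anterograde particle, rose by 2.21 ± 0.31 and Ift81 by 1.93 ± 0.27 (FDR = 4.5e-11 and 6.2e-11, edgeR), whereas Kif3a, the motor subunit, had a log2FC of 0.60 ± 0.30 (FDR = 0.23, edgeR). With cells thinned to 500 UMIs none of these genes was called (Wdr19 was not tested), at a list median of 1.02 and log2FCs of 2.26 for Ift88 and 1.94 for Ift81 (FDR = 0.015 and 0.040, edgeR). Among tubulins and their modifying enzymes, Ttll3 and Ttll6, which add glycine and glutamate chains to axonemal tubulin, rose by 2.62 ± 0.48 and 4.11 ± 0.55. Tubb3 and Tuba4a fell, but with at least 5 cells per PDOX the log2FC of Tuba4a was -0.71 (FDR = 0.65, edgeR) and Tubb3 was not tested. With cells thinned, Ttll6 was not tested and none of the others passed, at log2FCs of 2.89 for Ttll3 and -1.85 for Tubb3 (FDR = 0.056 and 0.50, edgeR). Tuba1a and Tubb4b had log2FCs of 0.89 ± 0.19 and 0.89 ± 0.25, under the set fold. Tubb4b passed with at least 5 cells per PDOX and symbols joined (1.47, FDR = 0.00023, edgeR) and in cells without an exclusion gene (2.14, FDR = 0.0030, edgeR), and had a log2FC of 1.17 with cells thinned (FDR = 0.34, edgeR). Of 12 regulators of ciliogenesis, 3 passed the filter on low counts and none passed the test: Rfx3 had a log2FC of 1.31 ± 0.48 (FDR = 0.063, edgeR), E2f4 0.03 ± 0.56 and Rfx4 -1.47 ± 0.75.

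Sequences before the start sites of the axonemal genes were searched, since these genes rose together and Rfx factors are known to bind X-box motifs. RefSeq promoter windows (300 bases, 250 of them before the start site, GRCm38.p6) matched 64 of the 81 axonemal genes. The X-box core GTTGCCA, on either strand, was found in windows of 17 of the 64 genes (26.6%), in 5 of 24 genes for intraflagellar transport and the BBSome (20.8%), and in 5.02% of all 27025 genes with a window. The forkhead motif TGTTTAC was in 4 of the 64 genes (6.25%) and 4.05% of all genes, and none of the windows of the 4 matched marker genes of the rule held either motif. A match is a run of letters and not a measured site. With a chromosome left out of this step, the core lay before the start of 15 axonemal genes. The 60 bases around it are shown for the 8 of these with the most UMIs in ciliated ependymal cells, with the X-box core in capitals (TGGCAAC on the opposite strand) and each sequence 5′ to 3′ on the gene's strand.
Mns1 (chr9:72438429-72438488, + strand): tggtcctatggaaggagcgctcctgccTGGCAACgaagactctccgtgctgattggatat
Cfap44 (chr16:44394739-44394798, + strand): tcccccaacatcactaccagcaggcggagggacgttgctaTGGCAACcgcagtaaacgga
Iqcg (chr16:33056187-33056246, - strand): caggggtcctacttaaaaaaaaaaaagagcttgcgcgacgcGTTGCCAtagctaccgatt
Lrriq1 (chr10:103236323-103236382, - strand): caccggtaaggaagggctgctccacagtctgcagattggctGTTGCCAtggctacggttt
Sntn (chr14:13670783-13670842, + strand): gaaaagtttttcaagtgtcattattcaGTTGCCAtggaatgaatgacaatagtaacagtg
Iqca (chr1:90153504-90153563, - strand): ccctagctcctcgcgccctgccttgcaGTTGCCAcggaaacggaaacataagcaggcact
Cfap161 (chr7:83794860-83794919, - strand): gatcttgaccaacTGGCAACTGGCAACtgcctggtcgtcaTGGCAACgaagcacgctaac
Mlf1 (chr3:67373965-67374024, + strand): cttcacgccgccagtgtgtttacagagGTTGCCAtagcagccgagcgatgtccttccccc
The X-box core lay between 19 and 105 bases before the start site in 7 of these genes, and 130 and 20 bases before it in Cfap44, which had 2. Cfap161 carried 3 copies within its 60 bases.

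Of 20 genes of the ependymal surface, of stem cells and of glia, 2 rose and 1 fell, beside 3.81% and 3.53% of all genes. Cd24a, a surface protein used to sort ependymal cells, was 256 CPM in Nu-NB (1 UMI), 543 in P8, 275 in T101, 59.1 in T192, 96.9 in T233, 90.1 in P3, 220.1 in T16 and 315 in P13, above the other barcodes of each sample (5.19 to 34.1 CPM), and rose by 3.15 ± 0.29. Nnat, the small membrane protein neuronatin, was 1023 CPM in Nu-NB, 2378 in P8, 1510 in T101, 807 in T192, 377 in T233, 631 in P3, 1206 in T16 and 1404 in P13. It rose by 1.99 ± 0.20 (FDR = 6.0e-22, edgeR) and was above the other barcodes of every sample, which had 25.8 to 308 CPM. With cells thinned to 500 UMIs its log2FC was 1.72 and it did not pass (FDR = 0.067, edgeR). Id3, a repressor of differentiation factors, fell by 2.15 ± 0.27, and did not pass with cells thinned (log2FC -2.19, FDR = 0.090, edgeR). Clu, Vim, Aqp4 and Sox2 did not pass the test, with log2FCs between -0.43 and 0.19.

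Single genes of the stress and metal lists rose: Hsp90aa1, an inducible chaperone, by 1.76 ± 0.19 and Mt3, the brain metallothionein, by 1.02 ± 0.20 (FDR = 6.4e-19 and 6.7e-06, edgeR). With cells thinned to 500 UMIs neither passed, at a log2FC of 1.78 for Hsp90aa1 and 0.97 for Mt3 (FDR = 0.047 and 0.41, edgeR). Against astrocytes, compared below, Hsp90aa1 passed (1.93, FDR = 7.2e-20, edgeR), also with cells thinned (2.50, FDR = 6.3e-07, edgeR), and Mt3 was not called. Hsp90aa1 was 10230 CPM in Nu-NB, 4008 in P8, 3432 in T101, 571 in T192, 969 in T233, 2343 in P3, 1699 in T16 and 1688 in P13. Every sample exceeded its other barcodes, which lay between 245 and 501 CPM, and the control brain was highest. The other 14 tested genes of the immediate early and heat shock list and the other 13 of the metallothionein and oxidative stress list did not pass. Of 16 genes for secreted factors that were tested, 5 fell (Cxcl12, Igf2, Igfbp2, Igfbp7 and Ptn) and none rose. Of all genes, 3.53% were lower and 3.81% higher at the same threshold. With cells thinned Igfbp7 and Ptn passed (-4.93 and -2.78), and Cxcl12, Igf2 and Igfbp2 did not, at log2FCs of -3.47, -3.18 and -1.08 (FDR = 0.020, 0.048 and 0.43, edgeR). No gene of 16 for MHC class I and interferon responses passed in either direction. At an unadjusted p below 0.05, 890 of all genes were higher and 1263 lower.

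**Figure D4:**
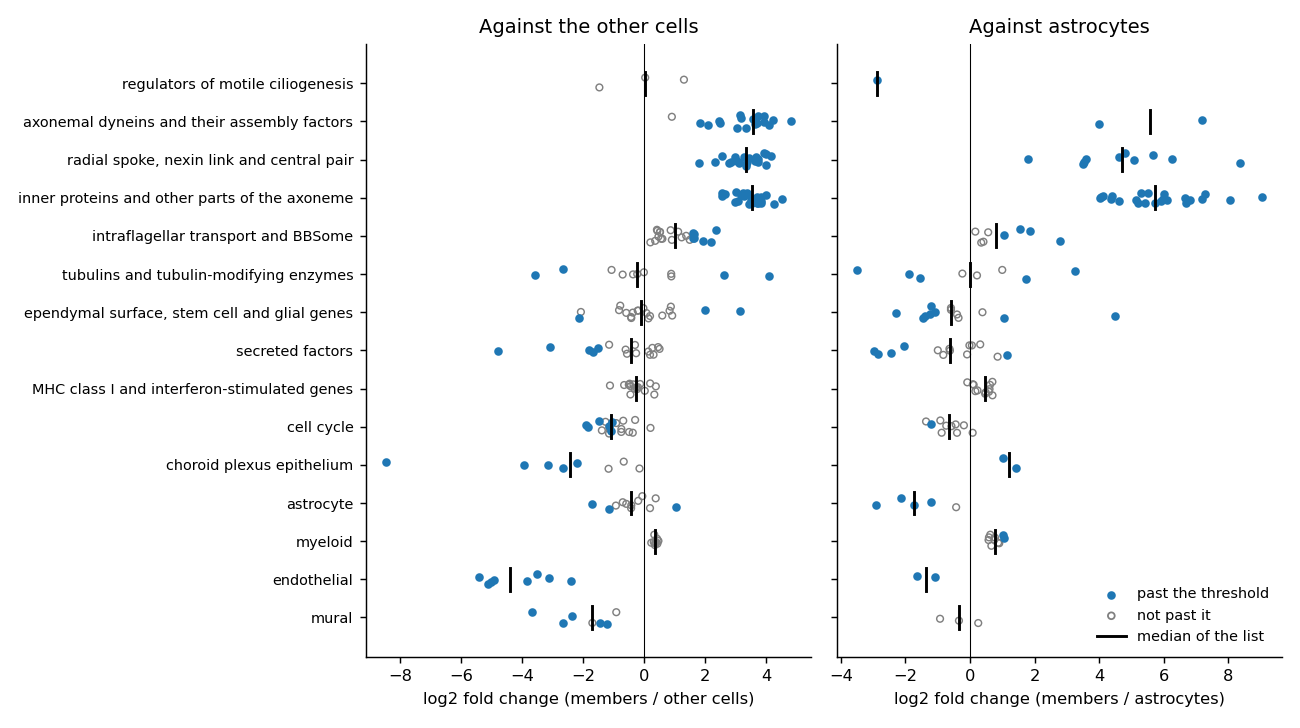
Log2 fold changes (x axis) of the genes of 15 lists in the chosen cells against the other barcodes (left) and against astrocytes (right) of T233, T16 and P13. Filled points passed FDR ≤ 0.01 and |log2FC| ≥ 1, open points did not, and bars are list medians. The 3 axonemal lists lie to the right in both panels, with medians of 3.33 to 3.56 on the left, and endothelial genes lie to the left with a median of -4.39.

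Genes of vessels were lower, and those of other cell types in part. The rule bears on these genes, since of the 172 barcodes that it dropped and that were counted among the others 110 held Rgs5, 99 Folr1 and 42 Cldn5, so the counts are a description. All 8 endothelial genes tested fell, with a median log2FC of -4.39. So did 5 of 7 mural, 5 of 8 choroid plexus and 2 of 4 fibroblast genes. Among erythrocyte and cell cycle genes 4 of 4 and 6 of 19 fell. Of all genes, 3.53% were lower and 3.81% higher. With cells thinned to 500 UMIs, the endothelial genes Ly6c1 and Itm2a (-5.33 and -5.06) and the choroid plexus gene Enpp2 (-2.42) were called lower, and no mural, fibroblast, erythrocyte or cell cycle gene. The thinned log2FCs of genes no longer called were -2.63 for Flt1, -2.65 for Vtn, -1.82 for Col1a2, -4.22 for Hbb-bs and -2.47 for Top2a (FDR = 0.015, 0.18, 0.38, 0.015 and 0.10, edgeR), beside -2.41, -2.38, -1.63, -6.59 and -1.07 without thinning. Of 5 oligodendrocyte lineage genes Olig1 fell (not called with cells thinned, FDR = 0.41, edgeR), and none of 3 neuronal genes passed. Ctla2a fell by 7.48 ± 0.56 (1 UMI in the chosen cells), and Pecam1, an endothelial adhesion protein, fell by 5.03 ± 0.60. Gkn3 had no UMI in the chosen cells and was at least 23.1-fold lower, taking 3 counts over the group as its limit. None of 10 myeloid genes passed, with a median log2FC of 0.37, which turned to -0.44 with at least 5 cells per PDOX and symbols joined (all genes -0.22) and to -1.22 with cells thinned. Summed myeloid shares were 3.36%, 1.63% and 1.43% in the chosen cells of these PDOXs, and 2.91%, 0.932% and 1.13% in the other barcodes. Of 12 astrocyte genes, Mlc1 rose by 1.04 ± 0.28 while Bcan and Cldn10 fell. None of these 3 passed with cells thinned, at log2FCs of 1.17, -1.73 and -1.40 (FDR = 0.37, 0.31 and 0.42, edgeR), and 71 of the 151 cells held UMIs of at least 3 of 7 astrocyte markers.

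Astrocytes, which share a lineage with ependymal cells, were compared next, to ask how these cells differ from the other glia of the same PDOX. They were chosen by at least 3 of Aqp4, Gja1, Slc1a2, Slc1a3, Aldoc, Bcan and Ntsr2. They also held at most 1 of the 7 ciliary rule markers and at most 1 exclusion gene. Barcodes with more ciliary markers were thus kept out of the astrocytes, so the rule bears on the axonemal genes in this comparison. In the same 3 PDOXs 4.22% of 4547 genes were higher in ciliated ependymal cells and 6.99% (318) lower. The 2 tested dynein genes (Dnah12 and Ttc25), 10 of 10 spoke, link and central pair genes and 23 of 23 inner axoneme genes rose, with list medians of 5.58, 4.72 and 5.73. Genes scarce in astrocytes could pass the filter on low counts only through the chosen cells, and 2 of 27 dynein genes were tested, so these counts are a description. Among genes outside the rules at 100 CPM or more, Fam216b had the largest difference (log2FC 9.05 ± 0.55), at 287 CPM on average against 0.178 in astrocytes. Iqca, a nexin link protein (8.37 ± 0.59), Sntn (8.05 ± 0.53) and 3300002A11Rik (7.80 ± 0.62) followed. In astrocytes Fam216b and Sntn were 0 CPM in T233 and T16. Iqca was 0 CPM in T16 and P13, and 3300002A11Rik in T233 and P13. With astrocyte levels this near the floor, the size and order of these folds are uncertain. Ak7 rose by 7.28 ± 0.37 and Cd24a by 4.48 ± 0.38. Nnat passed with 1.04 ± 0.20, but it was higher in 2 of 3 PDOXs, at 377 against 454 CPM in T233. Tubb4b rose by 1.74 ± 0.30, and Tubb2a, Tubb2b and Tubb3 fell. With cells thinned Tubb4b passed, Tubb3 was not tested, and Nnat, Tubb2a and Tubb2b did not pass, at log2FCs of 1.36, -1.70 and -1.82 (FDR = 0.031, 0.26 and 0.26, edgeR).

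Of the list of ependymal surface, stem cell and glial genes, 13 were tested, 6 were lower than in astrocytes and 2 higher, beside 6.99% and 4.22% of all genes. With cells thinned to 500 UMIs, none was called lower and Cd24a was called higher, while the list median was -0.58 against -0.59 without thinning and that of all genes moved from -0.0013 to -0.24. Clu then had a log2FC of -1.15 (FDR = 0.12, edgeR). Astrocytes were chosen by glial markers. Outside those markers, Clu fell by 1.46 ± 0.21, Gfap, the intermediate filament of astrocytes, by 1.08 ± 0.26, Sox2 by 1.20 ± 0.24, and Glul, Cdh2 and Id3 also fell. Agt, Cldn10, Fgfr3 and Slc4a4 of the astrocyte list fell, of which Agt was not called with cells thinned (-0.71, FDR = 0.75, edgeR) or in cells without an exclusion gene (-0.99, FDR = 0.40, edgeR), and Mlc1 did not pass (-0.43 ± 0.25). Rfx4 fell by 2.89 ± 0.61. Gas6, a ligand of the TAM receptors, rose by 1.01 ± 0.25 (208 against 99.1 CPM) in 3 of 3 PDOXs. It did not pass with at least 5 cells per PDOX or with cells thinned (FDR = 0.028 and 0.37, edgeR), nor in cells without an exclusion gene (FDR = 0.34, edgeR), with log2FCs of 1.06, 1.04 and 1.02. Of 14 secreted factor genes tested, 4 fell: Igfbp7 (-2.96), Ptn (-2.86), Vegfa (-2.46) and Sparcl1 (-2.06). With cells thinned Vegfa was not tested and the other 3 passed. Spp1, a secreted phosphoprotein, was the only 1 of the 14 that rose, with 1.14 ± 0.21. Its log2FC was -0.13 with cells thinned and -1.22 in cells without an exclusion gene (T101, T16 and P13). The myeloid genes Fcer1g and P2ry12 rose by 1.06 ± 0.20 and 1.01 ± 0.20 beside it. Fcer1g and P2ry12 did not pass with cells thinned either (-0.61 and 0.49), with at least 5 cells per PDOX (0.63 and 0.61) or in cells without an exclusion gene (-1.70 and -0.57). The strongest decreases were in ribosomal protein copies and predicted genes such as Rpl13-ps5, Rpl10l, Gm4321 and Gm18014, whose reads can be split among near-identical sequences, so these values are uncertain.

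Choroid plexus epithelial cells, the other ciliated epithelium of the ventricles, were set beside them as values only, since few were found (7 to 38 per sample). They were chosen by at least 2 of Folr1, Kl, Kcnj13, Clic6, Otx2 and Prlr. At most 2 of the 7 ciliary rule markers and at most 1 of Csf1r, Cldn5 and Rgs5 were allowed. This cap on ciliary markers bears on their axonemal share. Axonemal UMIs were 0.437% of their total in Nu-NB and 0.576% in P8, and 0.0801% to 0.235% in the other untreated PDOXs, against 5.40%, 3.79% and 0.421% (T233) to 2.25% (T101) in the summed ciliated ependymal cells of the same samples. Choroid plexus genes other than those of the rule, led by Ttr, the thyroid hormone carrier, made up 22.7% and 15.4% of choroid UMIs there. In ciliated ependymal cells Ttr was 24662 CPM in P8, 6128 in P13 and 1963 in T16, and 0 to 360 CPM elsewhere. Ttr and Enpp2 passed against astrocytes (1.02 and 1.42), higher in 2 and 1 of 3 PDOXs, and both were lower than astrocytes in cells with at least 4 markers (-1.48 and -0.86), where T233 had 8 cells and was not in the fit (1.69 and 1.66 without T233 alone). Without P13 the log2FCs of Ttr and Enpp2 were 0.11 and -0.996. A single P8 cell held 378 of the 391 UMIs of choroid plexus genes (Folr1 and Kl included) and only 0.759% axonemal UMIs, and 5 cells of P13 and 1 of T16 also held at least 50 such UMIs each.

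Nu-NB had too few cells (4, with 3910 UMIs) for the planned test against the PDOXs, and values are given instead. Each axonemal list took more UMIs there than in any untreated PDOX: dyneins 1.13% (exact Poisson interval 0.818 to 1.51) against 0.0592% to 0.659%, spokes, links and central pair 1.76% (1.37 to 2.23) against 0.112% to 1.05%, and inner axoneme proteins 2.51% (2.03 to 3.05) against 0.246% to 2.09%. P8, the PDOX sorted the same way, was nearest, at 0.659% (0.534 to 0.804), 1.05% (0.887 to 1.23) and 2.09% (1.86 to 2.33). For the inner axoneme proteins the intervals of Nu-NB and P8 overlapped. MHC class I and interferon genes made up 0.153% of UMIs in Nu-NB (0.0563 to 0.334) and 0.149% in P8 (0.0937 to 0.226), while the MACS-sorted PDOXs had 0.473% to 1.23%, beside summed myeloid shares of 1.03% to 3.36%. Immediate early and heat shock genes were 2.33% in Nu-NB (1.87 to 2.86), 1.01% in P8 (0.850 to 1.18) and 0.654% to 1.08% in the other untreated PDOXs. Over all samples, Hsp90aa1 and Hsp90ab1 held 649 and 927 of the 2165 UMIs of this list in cells with more axonemal than myeloid UMIs. In the other chosen cells they held 274 and 861 of 3445. These intervals cover counting error of 1 brain and 1 PDOX, not the spread between mice.

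TMZ-treated P3 gave 1 cell of 760 (0.132%, 0.00333 to 0.731) and untreated P3 gave 4 of 818 (0.489%, 0.133 to 1.25), and the intervals overlapped. Of the 4 cells of untreated P3, 3 held 2.09% to 3.39% axonemal UMIs and 1 held 0.198%. No comparison of genes was made, because the single treated barcode went against the label.

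With each cell thinned to 500 UMIs, 7 of 144 cells of the untreated PDOXs held at least 2 of 21 cell cycle genes (4.86%), against 886 of 9020 other barcodes (9.82%). Without thinning the shares were 32.2% and 17.0%. All 7 cells were among the 79 of P13, where 396 of 2794 other barcodes held at least 2 such genes, so the pooled shares are a description of cells and not a comparison over PDOXs. In the other PDOXs no chosen cell (4 to 32 each) and 39 to 146 other barcodes did. Of the 7 cells, 2 had more axonemal than myeloid UMIs.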

How the data were processed

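The authors mapped reads to both the human and the mouse genome (GRCm38/mm10; STAR and bcl2fastq 2.0 are named in their processing notes) and deposited UMI counts of mouse cells, a table of genes and barcodes per sample with no normalization. Files held 1294068 to 8410580 UMIs each. Doublets were not removed, except in an alternative that left out the highest 5% of scores. The members and gene lists were chosen with earlier results of these data known. UMIs were summed per PDOX and class. edgeR 4.0.16 (TMM, quasi-likelihood, filterByExpr, Benjamini-Hochberg) was run on R 4.3.3 with a PDOX term, with DESeq2 1.42.0 as an alternative. Both were tested on simulated data. The genes of each rule stayed out of counts. Named genes were the rule genes, up to 6 per list with most UMIs, and up to 10 per direction with the largest log2FC at 100 CPM or more in the higher arm and the same direction in every PDOX; members of lists named with a count of calls were chosen after their values were seen. Lists, levels and shares across all 9 samples used 602 older symbols of Nu-NB and P8 joined through RefSeq synonyms. Scores of scrublet (scanpy 1.11.5, seed 1), intervals (95%, scipy 1.17.1) and thinned counts used Python 3.11.15. Samples within a group were single libraries, so p-values measure the spread between 3 PDOXs. Cell positions, human tumor cells and other tumor models were not analysed here.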

Additional observations from a re-analysis of the deposited data

Results flagged for a closer look

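Of 29 measures over the 7 untreated PDOXs, 5 had a sample that stood apart from the others by Dixon's criterion, which by chance alone marks about 5% of such groups. In P8, choroid plexus genes took 2.62% of UMIs (0.0138% to 0.698% in the other PDOXs). Also in P8, regulators of ciliogenesis took 0.0611% (9 UMIs) and tubulins with their enzymes 0.401%. In P13, cell cycle genes took 0.182%, and erythrocyte genes 0.000749% (2 UMIs, none in the other PDOXs). The barcodes of P13 that were not chosen were also highest for cell cycle genes (0.287%, against 0.0738% to 0.144% in the other untreated PDOXs).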

How the results depend on the processing

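Against the other barcodes, leaving out 1 PDOX gave 166 (without P13) to 570 (without T233) higher genes and 160 (without T16 or P13) to 371 lower genes. DESeq2 gave 107 lower genes. With at least 5 cells per PDOX, 181 were higher and 131 lower, and 201 and 137 with older symbols joined. With cells thinned to 500 UMIs, 130 were higher and 18 lower, and in cells without an exclusion gene 275 and 73. Of the 130 higher genes with thinned cells, 129 were among the 413. Against astrocytes, leaving out 1 PDOX gave 2.50% (without P13) to 5.64% (without T233) of tested genes higher, and lower genes from 4.82% (without T16) to 6.05% (without T233). DESeq2 gave 2.55% higher and 3.36% lower, no filter on low counts 2.06% and 3.45% of more genes (409 and 684 in number), and leaving out doublet scores 5.71% higher and 5.55% lower. At least 4 markers gave 4.77% higher and 3.67% lower. In these last settings T233 fell to 9 and 8 cells and left the fit, so the setting and the loss of T233 cannot be told apart. At least 5 cells per PDOX gave 2.39% higher and 3.75% lower, or 2.59% and 3.78% with symbols joined, thinned cells 3.62% and 1.59%, and cells without an exclusion gene 8.07% higher and 2.90% lower. The fit without an exclusion gene held T101 (6 cells), T16 (15) and P13 (39), also against the other barcodes. Its minimum of cells per PDOX was thus below 10, so 2 choices changed at once. The cause was not tested.

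In cells without an exclusion gene, the log2FC against other barcodes turned to -2.28 for Spp1, -1.60 for Jun and -2.33 for C1qb (-1.31, -0.95 and -1.63 with thinned cells and -0.33, -0.43 and -0.48 with at least 5 cells per PDOX and symbols joined, not called), and against astrocytes to -1.22 for Spp1. Thinned cells turned Spp1 against astrocytes to -0.13. At least 4 markers, without T233, turned Ttr to -1.48 and Enpp2 to -0.86 against astrocytes, and leaving out 1 PDOX moved Enpp2 between -0.996 (without P13) and 2.19 (without T16). Of 2734 values of named genes under alternatives, 2528 kept their side of the threshold (sign changes of values not called in either fit included), 168 no longer passed, 30 newly passed and 8 turned. The 146 cells of untreated PDOXs became 78 at a mitochondrial limit of 10% and 69 with no exclusion gene allowed. The share with cell cycle genes was 27.8% from 1 gene (25.8% in other barcodes) and 32.2% without thinning (17.0%). In these settings it was not lower than in the other barcodes. The alternatives of at least 5 cells, of thinned cells, of cells without an exclusion gene and without thinning of the cell cycle share were chosen after seeing the data. A fit on all samples or on MACS samples alone had the same 3 PDOXs, and tests against Nu-NB were not run. Members and other barcodes came from the same PDOX, which was a term in the fit. Depth limits single genes: T101, P3 and Nu-NB held 3910 to 11097 UMIs in these cells.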
